A study of Mus musculus with 12 samples.

Results

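The genes described here are 32 listed genes of cholesterol and fatty acid synthesis, of 53715 genes in the table of raw counts. They were chosen by name, with earlier results of these data known, and matched by symbol to mouse gene identifiers; the rule itself uses no measured value. By role they are 7 enzymes from acetyl-CoA to farnesyl diphosphate, 11 enzymes from farnesyl diphosphate to cholesterol, 7 regulators and carriers, and 7 enzymes of fatty acid synthesis. All 32 passed the filter of more than 10 counts in any library, and their lowest count in a library was 131, for Acacb.

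RNA was sequenced from 3 groups of C57BL/6JOlaHsd mouse liver cells, with 4 biological replicates (libraries) in each. Hepatoblasts were Dlk1+ cells sorted magnetically from pooled E14.5 livers and lysed directly. Diff. hepatocytes (below also the cultured cells) were the same kind of cell after 4 days in culture on fibronectin. Their medium held Matrigel, serum, dexamethasone and an insulin-transferrin-selenium supplement. Mature hepatocytes (also the adult cells) came by collagenase perfusion from adult male mice of 8 to 12 weeks and were lysed directly. Culture, stage and isolation method therefore differ together between the groups, and their parts in any difference cannot be told apart.

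Cells make cholesterol from acetyl-CoA by way of mevalonate, farnesyl diphosphate, squalene and lanosterol, and make fatty acids from the same acetyl-CoA by way of malonyl-CoA. Transcription of both sets of enzymes is driven by the SREBP factors, encoded by Srebf1 and Srebf2, which are held in the endoplasmic reticulum by Scap and the Insig proteins when sterols are plentiful and cut free in the Golgi when they are scarce. In adult liver Srebf1 and Mlxipl, which encodes the carbohydrate-responsive factor ChREBP, relay insulin and glucose to fatty acid synthesis, whereas Srebf2 mainly serves sterol synthesis.

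RefSeq promoter windows (GRCm38.p6, 250 bases before to 50 after a start) were found for 27 of the 32 genes. The sterol response element written as TCACNCCAC was searched on both strands, with a looser form, TCACNCNAC, that contains it. The strict form stood in windows of Hmgcs1 and Mlxipl, and in 1.44% of all genes with a window. The loose form was also in a window of Nsdhl, and in 3.15% of all genes. Letters of partner factors were common: CCAAT (the NF-Y box) stood in 23 of the 27 genes against 41.1% of all genes, and GGGCGG (the Sp1 box) in 22 against 38.2%. The E-box CACGTG stood in 6 of the 27 against 8.09% of all genes. A match describes letters only, and a missing match says only that these letters are not in the window. The 3 windows with a sterol element, and that of Mvk, the gene with the largest fall in culture, are shown 5′ to 3′ up to the base before the start, with the loose sterol element, the NF-Y box, the Sp1 box and the E-box in capitals where they match on either strand. Those of Hmgcs1 lie at chr13:119690101-119690350, of Nsdhl at chrX:72918271-72918520, of Mlxipl (the second of its windows) at chr5:135106641-135106890 and of Mvk at chr5:114444019-114444268, all on the plus strand.
Hmgcs1: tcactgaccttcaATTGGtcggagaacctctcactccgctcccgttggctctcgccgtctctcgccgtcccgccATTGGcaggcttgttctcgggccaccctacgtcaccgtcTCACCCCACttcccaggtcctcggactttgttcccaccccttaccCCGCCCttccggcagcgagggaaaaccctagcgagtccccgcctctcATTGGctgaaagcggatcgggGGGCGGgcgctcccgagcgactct
Nsdhl: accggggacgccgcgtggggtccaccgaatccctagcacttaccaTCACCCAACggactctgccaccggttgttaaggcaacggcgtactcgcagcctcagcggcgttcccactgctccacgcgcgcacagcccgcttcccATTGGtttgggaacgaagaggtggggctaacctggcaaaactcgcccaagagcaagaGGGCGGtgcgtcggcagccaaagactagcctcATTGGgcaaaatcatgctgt
Mlxipl: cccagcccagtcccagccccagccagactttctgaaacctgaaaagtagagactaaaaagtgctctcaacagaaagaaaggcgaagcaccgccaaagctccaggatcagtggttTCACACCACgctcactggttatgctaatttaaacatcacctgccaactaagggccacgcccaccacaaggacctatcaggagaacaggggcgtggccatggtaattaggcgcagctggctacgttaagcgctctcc
Mvk: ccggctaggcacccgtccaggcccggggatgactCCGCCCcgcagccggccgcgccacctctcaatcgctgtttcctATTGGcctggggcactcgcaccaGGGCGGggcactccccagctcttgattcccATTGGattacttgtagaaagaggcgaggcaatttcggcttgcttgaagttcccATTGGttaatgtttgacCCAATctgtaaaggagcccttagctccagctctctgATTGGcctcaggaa

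The libraries held 19581551 to 25216977 counts on genes. Values below are CPM (counts scaled to one common library size by TMM), and a gene is called changed at a Benjamini-Hochberg adjusted p under 0.01 in edgeR's quasi-likelihood test together with an absolute log2 fold change over 1. The labels were checked on markers. The 4 hepatoblast genes summed to 40890 to 68570 CPM in Hepatoblasts, to 37390 to 43760 CPM in the cultured cells and to 64.88 to 106.9 CPM in the adult cells. The 8 hepatocyte genes summed to 33260 to 56270, 54200 to 62720 and 117600 to 165600 CPM. The cultured cells thus held hepatoblast RNA beside hepatocyte RNA, but 3 of the 4 hepatoblast genes were called lower in them than in Hepatoblasts. Means fell from 3520 to 94.2 CPM for Dlk1, from 39300 to 18600 CPM for Afp and from 660 to 201 CPM for Igf2. H19, the largest part of the cultured sum, went the other way, from 14900 to 22200 CPM, and was not called. Of the 8 hepatocyte genes, 4 were called higher in the cultured cells than in Hepatoblasts and 0 lower. Against the adult cells 0 were called higher and 4 lower. Means in Hepatoblasts, cultured and adult cells were 37800, 40200 and 95200 CPM for Alb, the largest part of each sum. For Cps1 they were 22, 5920 and 6070 CPM, and for Cyp2e1, a cytochrome of adult hepatocytes, 2.82, 3.24 and 6500 CPM. Markers of other cells also differed. The 5 bile duct genes summed to 12.89 to 15.06 CPM in Hepatoblasts, 69.95 to 212.9 CPM in the cultured cells and 15.4 to 40.66 CPM in the adult cells, where Krt7, Krt19 and Epcam were called highest in culture but Sox9 (4.73, 4.76 and 9.06 CPM) and Spp1 (4.12, 8.38 and 16.3 CPM) had their highest mean in the adult cells. The 7 mesenchymal genes ran from 661.6 to 1296, 1203 to 2940 and 46.4 to 62.39 CPM in the same order. Cell cycle genes (8, all called lower than in Hepatoblasts in both comparisons) ran from 1378 to 2461, 105.1 to 184.3 and 49.64 to 62.44 CPM. Endothelial genes (6) ran from 32.21 to 125.7, 4.753 to 9.858 and 99.54 to 190.7 CPM, erythroid genes (9) from 366.6 to 2981, 7.152 to 29.57 and 135.4 to 185.2 CPM, and macrophage genes (8) from 81.53 to 342.7, 21.72 to 131 and 115.6 to 225 CPM. The adult erythroid sum was nearly all Alas2, which averaged 1.42 CPM in the cultured and 151 CPM in the adult cells. By sign, 6 of the 9 erythroid genes were higher and 3 lower in cultured than in adult cells, and only Alas2 was called. The part of these other cells in the results was not tested. In bulk RNA, fewer cells of a type and less RNA per cell cannot be told apart.

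Hepatoblasts replicate 1 stood apart. It had the lowest value of its group for all 32 genes, with a median deviation of -0.47 (log2) from the gene's group mean, and its 9 erythroid markers summed to 2981 CPM against 366.6 to 603.4 CPM in the other 3 libraries. Its macrophage markers summed to 342.7 CPM against 81.53 to 94.56 CPM. Diff. hepatocytes replicate 1 was the lowest of its group for 20 of the 32 genes (median deviation -0.14), with erythroid markers at 29.57 CPM against 7.152 to 15.45 CPM and macrophage markers at 131 CPM against 21.72 to 66.94 CPM. The part of these cells in the low values was not tested. Scaling also matters: the median log2 fold change of all genes was -0.01, -0.15 and 0.09 with TMM (cultured cells over Hepatoblasts, adult cells over Hepatoblasts, cultured over adult cells) and -0.34, -1.0 and 0.62 with library totals.

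**Figure D1:**
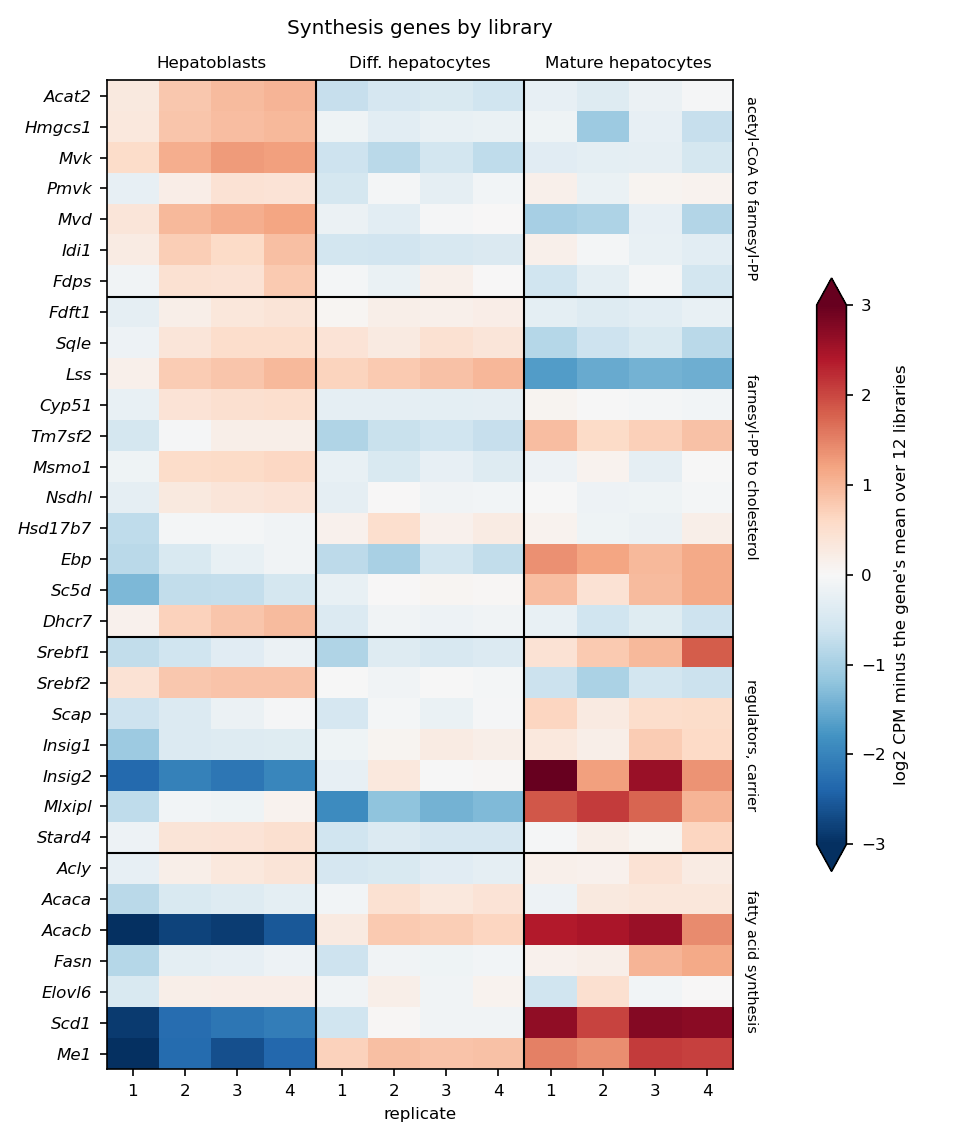
Level of each of the 32 genes (rows, grouped by role) in each of the 12 libraries (columns), as log2 CPM minus the gene's mean over the libraries; colours end at 3 either way. Most enzymes from acetyl-CoA to farnesyl diphosphate are highest in Hepatoblasts, and Scd1, Acacb, Me1 and Insig2 are highest in Mature hepatocytes.

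In culture genes of the set were called in both directions, and the counts were near the shares of all genes. Of the 32 genes, 4 were called higher in Diff. hepatocytes than in Hepatoblasts (14.9% of all 17779 genes tested were called higher) and 5 lower (14.0% of all genes). The 4 that rose were Acacb, Me1, Scd1 and Insig2, and the 5 that fell were Mvk, Acat2, Mlxipl, Idi1 and Mvd. The median log2 fold change of the 32 was -0.36. With library totals 4 were called higher and 10 lower (11.2% and 20.4% of all genes under that scaling), and without Hepatoblasts replicate 1 the counts were 4 and 7 (15.2% and 13.8%). The 5 genes gained with library totals were Hmgcs1 (-1.30), Dhcr7 (-1.17), Srebf2 (-1.12), Stard4 (-1.12) and Msmo1 (-1.06). The 2 groups' libraries did not overlap for 21 of the 32 genes, against 57.5% of all genes.

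In Mature hepatocytes against Hepatoblasts, 10 of 32 were called higher (20.1% of all genes) and 8 lower (24.7% of all genes), with a median log2 fold change of -0.05. More of the 32 were called than in culture, as were more of all genes. With library totals 5 were called higher and 15 lower, against 11.3% and 44.5% of all genes under that scaling. The 7 genes then also called lower were Fdps (-1.61), Idi1 (-1.58), Msmo1 (-1.35), Fdft1 (-1.32), Cyp51 (-1.18), Nsdhl (-1.15) and Pmvk (-1.03). Without Hepatoblasts replicate 1 the counts were 8 and 8 (20.5% and 24.4% of all genes). Libraries did not overlap for 22 of the 32 genes, against 66.0% of all genes. Between the cultured and the adult cells, 2 genes were called higher in culture (20.2% of all genes) and 7 lower (15.6% of all genes), with a median of -0.34. With library totals these were 4 and 6 (30.9% and 9.99% of all genes), with Mvd (1.13) and Srebf2 (1.18) gained as higher, and without Mature hepatocytes replicate 1 they were 1 and 9 (19.1% and 15.3%). Libraries did not overlap for 21 genes, against 61.6% of all genes.

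No gene of the 32 was called higher in Diff. hepatocytes than in both other groups, by edgeR or by DESeq2, and 0 were at an unadjusted p under 0.05 in both (6.41% of all genes were called higher than both). Mlxipl alone was called lower than both (2.94% of all genes), also by DESeq2. At an unadjusted p under 0.05, 8 of the 32 were lower than both. The share of all genes passing that unadjusted threshold in both comparisons was not computed for either direction, so these counts cannot be set against it. The comparisons share libraries, so they are set side by side and not as independent evidence.

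**Figure D2:**
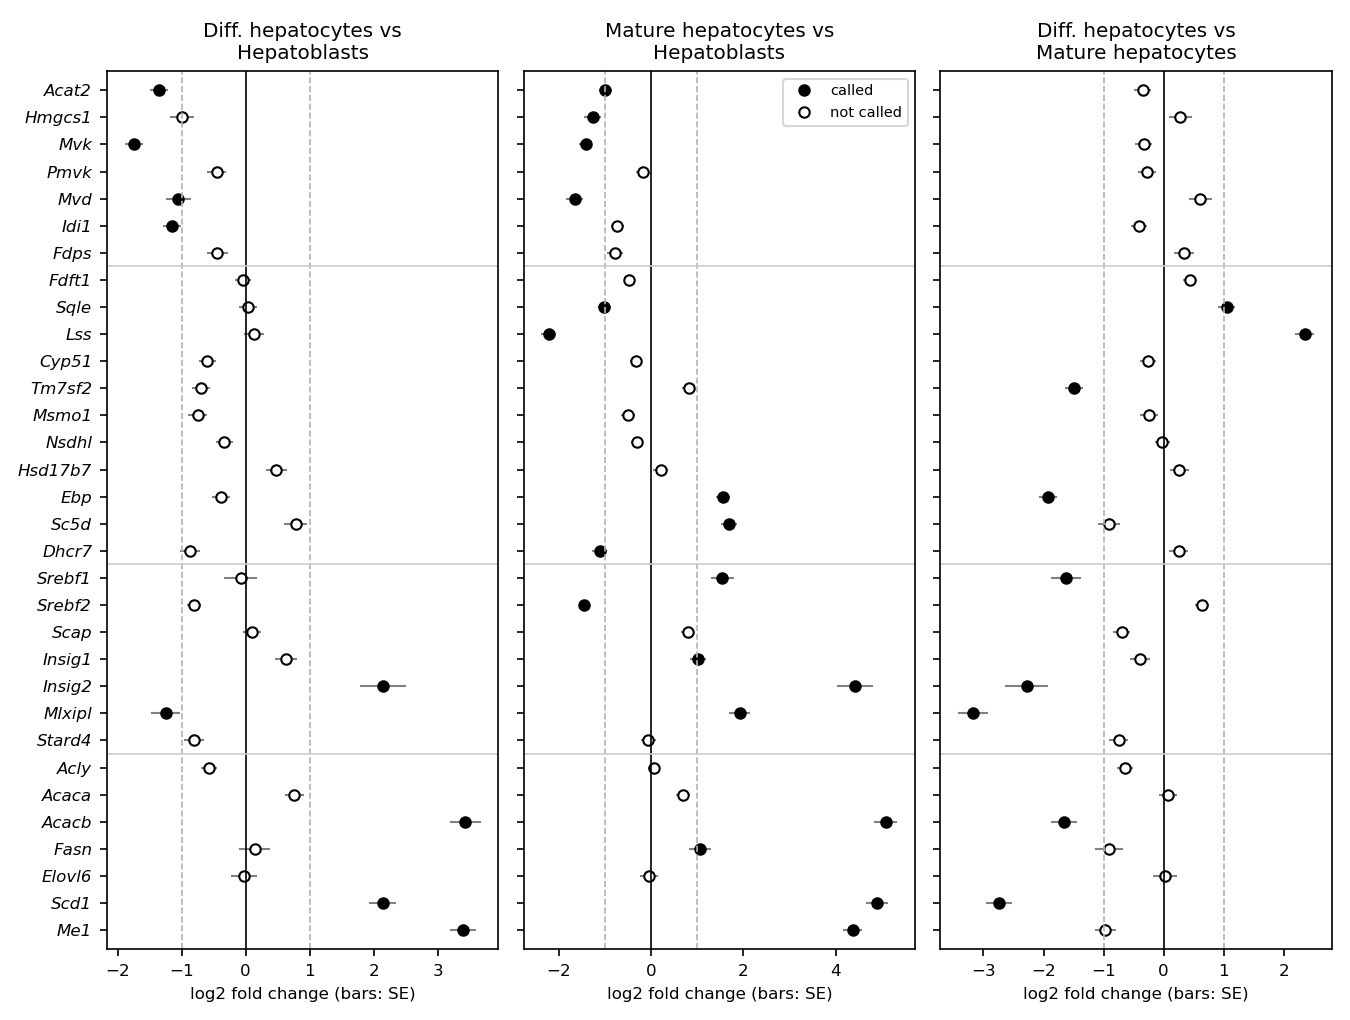
Log2 fold change (x axis, bars are standard errors) of each of the 32 genes in the 3 comparisons; filled points were called, and dashed lines mark a log2 fold change of 1 either way. The enzymes of the first 7 rows lie left of 0 in both comparisons with Hepatoblasts, and Acacb, Scd1, Me1 and Insig2 lie far to the right.

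The enzymes from acetyl-CoA to farnesyl diphosphate had one direction against Hepatoblasts. All 7 had a negative log2 fold change in Diff. hepatocytes against Hepatoblasts (range -1.75 to -0.44) and in Mature hepatocytes against Hepatoblasts (-1.66 to -0.18). In each comparison 4 were called lower, against 14.0% and 24.7% of all genes. No alternative run turned a sign. Their summed level was 860.5 to 1386 CPM in Hepatoblasts, 567.3 to 603.9 CPM in the cultured cells and 428 to 632 CPM in the adult cells. Between the cultured and the adult cells none of the 7 was called by edgeR or DESeq2 (edgeR called 20.2% of all genes higher and 15.6% lower). At an unadjusted p under 0.05 1 was higher and 3 were lower. Of all 17779 genes, 6410 were higher and 5690 lower at that unadjusted threshold.

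Mvk encodes mevalonate kinase, which adds the first phosphate to mevalonate. It measured 67.3, 97.4, 111 and 107 CPM in Hepatoblasts, 29.5, 26.1, 31.3 and 26.9 CPM in the cultured cells and 35.9, 37.5, 37.9 and 31.7 CPM in the adult cells. Every Hepatoblasts library was above every other library, and in culture Mvk fell by 1.75 on the log2 scale (SE 0.14, edgeR adjusted p = 2.31e-07). In Mature hepatocytes it fell by 1.42 (SE 0.14, edgeR adjusted p = 7.12e-07).

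Hmgcs1, which condenses acetoacetyl-CoA and acetyl-CoA to HMG-CoA and whose window above holds the strict sterol element, measured 520, 750, 793 and 818 CPM in Hepatoblasts. It measured 384, 339, 360 and 364 CPM in the cultured cells and 384, 198, 351 and 259 CPM in the adult cells. The Hepatoblasts libraries were again the highest 4. Its log2 fold change in culture was -0.99 (SE 0.19, edgeR adjusted p = 0.00058), just inside the fold limit and so not called, and it was -1.11 and called without Hepatoblasts replicate 1. In Mature hepatocytes it fell by 1.27 (edgeR adjusted p = 4.84e-05).

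Acat2, which makes acetoacetyl-CoA in the cytosol, averaged 138 ± 29.0 CPM in Hepatoblasts, 54.0 ± 4.11 CPM in the cultured cells and 69.0 ± 6.72 CPM in the adult cells (SD, n = 4). It fell by 1.35 on the log2 scale in culture. Its fall of 1.00 in Mature hepatocytes lay on the fold limit, and leaving out Hepatoblasts replicate 4 gave -0.92 and no call. As 33.9% of its 75-base stretches are shared with Acat3, its counts are uncertain. Mvd, which makes isopentenyl diphosphate, averaged 99.5 ± 22.5, 48.0 ± 4.71 and 31.4 ± 8.42 CPM, a fall of 1.05 in culture (-0.97 and no call without Hepatoblasts replicate 4) and of 1.66 in Mature hepatocytes. Idi1, the isomerase of that product, fell by 1.15 in culture and had a log2 fold change of -0.74 in Mature hepatocytes, where it was not called. Pmvk, the second kinase, and Fdps, which makes farnesyl diphosphate, were not called in any comparison with TMM, with log2 fold changes of -0.45 and -0.44 in culture. Idi1 and Fdps share 16.7% and 23.5% of their 75-base stretches with other genes.

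Beyond farnesyl diphosphate the enzymes had no common direction. In culture none of the 11 was called by edgeR or DESeq2 (edgeR called 14.9% of all genes higher and 14.0% lower). At an unadjusted p under 0.05 2 were higher and 6 lower. At that unadjusted threshold 5574 of all 17779 genes were higher and 5775 lower. In Mature hepatocytes against Hepatoblasts 2 were called higher (Sc5d and Ebp) and 3 lower (Lss, Dhcr7 and Sqle). Of all genes 20.1% were called higher and 24.7% lower there. In Diff. hepatocytes against Mature hepatocytes 2 were called higher (Lss and Sqle) and 2 lower (Ebp and Tm7sf2). Of all genes 20.2% and 15.6% were. The counts in these 2 comparisons are near the shares of all genes and do not set the 11 apart. The summed level of the 11 overlapped in all groups, at 1651 to 2775 CPM in Hepatoblasts, 2011 to 2229 CPM in the cultured cells and 2087 to 2428 CPM in the adult cells.

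Lss encodes lanosterol synthase, which closes the sterol rings. It measured 273, 416, 439 and 484 CPM in Hepatoblasts, 393, 425, 449 and 490 CPM in the cultured cells and 77.6, 86.7, 92.2 and 89.2 CPM in the adult cells. The Mature hepatocytes libraries lay below all 8 others, while the other two groups overlapped. Lss was 5.08-fold higher in the cultured than in the adult cells (log2 2.35, SE 0.16, edgeR adjusted p = 3.06e-08). Against Hepatoblasts its log2 fold change in culture was 0.13, with a 95% interval of -0.20 to 0.45.

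Sqle encodes squalene epoxidase, the oxygen-using step before Lss. It measured 185, 264, 297 and 296 CPM in Hepatoblasts, 272, 249, 282 and 266 CPM in the cultured cells and 113, 134, 150 and 118 CPM in the adult cells. Every Mature hepatocytes library lay below all others. Sqle was 2.07-fold higher in culture than in Mature hepatocytes (edgeR adjusted p = 2.40e-05), a value of 1.05 on the log2 scale that became 0.99, and not called, without Mature hepatocytes replicate 1. Its fall of 1.02 in Mature hepatocytes against Hepatoblasts was near the limit too, and was -0.96 and not called without Hepatoblasts replicate 3 or 4, -0.97 without Mature hepatocytes replicate 1 and -0.99 without Mature hepatocytes replicate 4. In culture against Hepatoblasts the log2 fold change was 0.04, with a 95% interval of -0.27 to 0.34.

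Ebp and Sc5d, which act late, were highest in Mature hepatocytes. Ebp, the sterol isomerase, averaged 90.1 ± 17.9 CPM in Hepatoblasts, 69.3 ± 8.42 CPM in the cultured cells and 263 ± 29.7 CPM in the adult cells (SD, n = 4), and was 3.80-fold lower in culture than in Mature hepatocytes (edgeR adjusted p = 1.11e-07). Sc5d, the lathosterol desaturase, averaged 208 ± 46.7, 358 ± 32.2 and 672 ± 130 CPM, and its libraries did not overlap between any of the groups. It rose by 1.69 on the log2 scale in Mature hepatocytes (edgeR adjusted p = 1.60e-06), and was at 0.78 in culture, short of the fold limit. With library totals the Mature hepatocytes values became 0.71 for Ebp and 0.84 for Sc5d, and neither was called. Dhcr7, which makes cholesterol from its last precursor, fell by 1.12 in Mature hepatocytes, with 297 ± 66.9 CPM in Hepatoblasts and 137 ± 18.5 CPM there. Its value in culture was -0.87, and -1.0 and called without Hepatoblasts replicate 1.

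Tm7sf2, a sterol reductase, averaged 218 ± 24.5 CPM in Mature hepatocytes and 77.2 ± 6.75 CPM in Diff. hepatocytes, 2.82-fold lower in culture (edgeR adjusted p = 1.18e-06), and with library totals -0.96 on the log2 scale and not called. Tm7sf2 shares 8.83% of its 75-base stretches with Vps51. The other 5 enzymes, Fdft1 (squalene synthase), Cyp51 (lanosterol demethylase), Msmo1, Nsdhl and Hsd17b7 (removal of the methyl groups at carbon 4), were called in no comparison with TMM. Their log2 fold changes lay between -0.75 (Msmo1 in culture) and 0.48 (Hsd17b7 in culture). The level of Cyp51 was 225 ± 2.71 CPM in Diff. hepatocytes, the smallest relative spread (1.20% of the mean) of the 32 genes in any group.

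**Figure D3:**
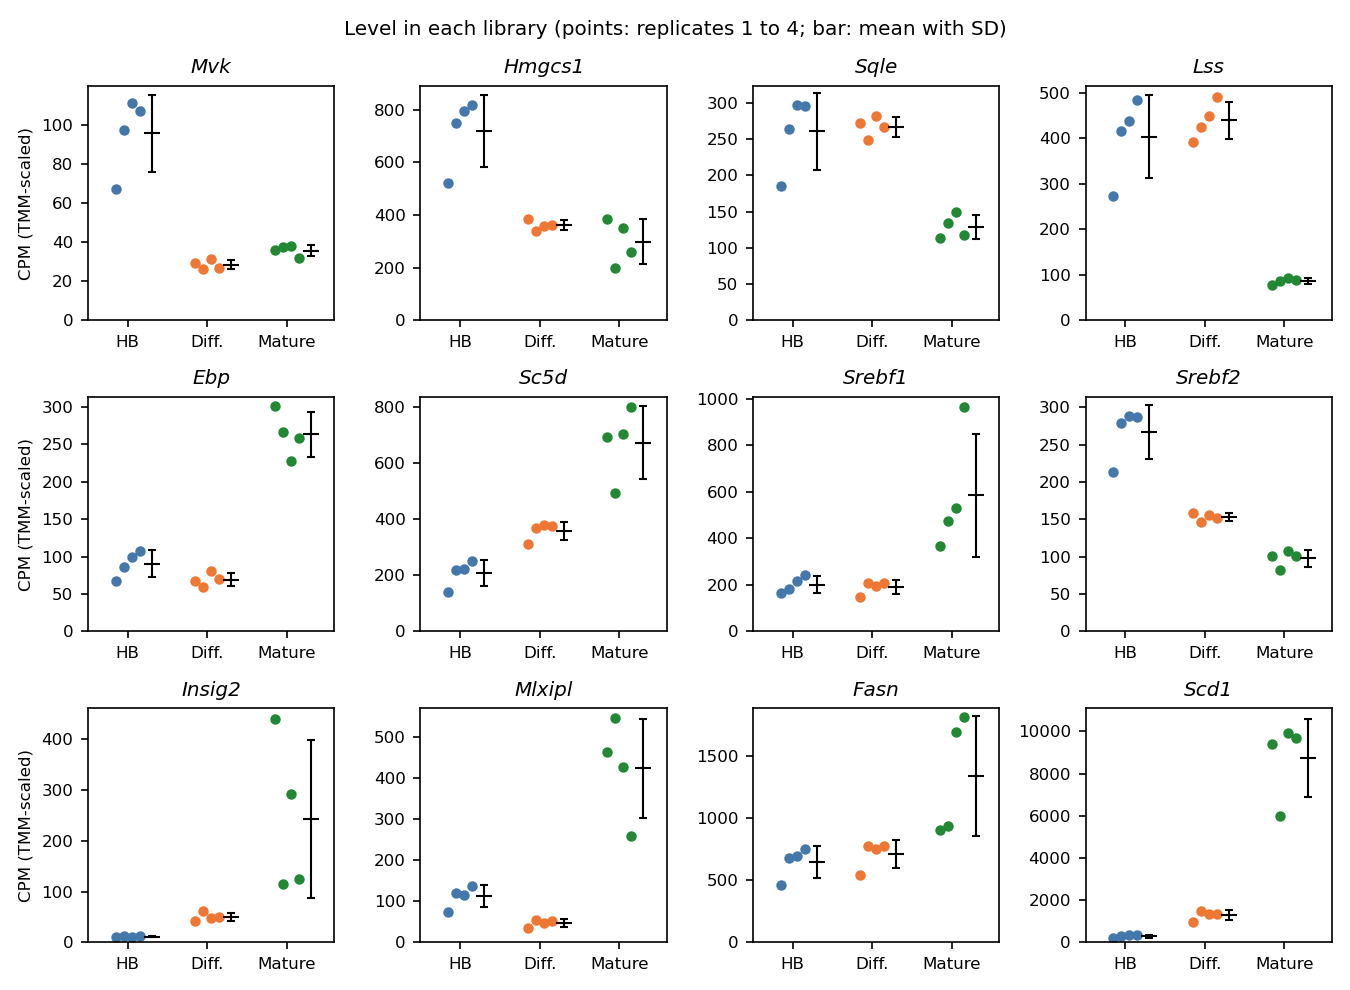
CPM (y axes from 0) of 12 genes in each library of Hepatoblasts (HB), Diff. hepatocytes (Diff.) and Mature hepatocytes (Mature); points are replicates and the black bar is the mean with its SD. Lss and Sqle lie lowest in Mature hepatocytes, while Ebp, Mlxipl and Scd1 lie highest in Mature hepatocytes.

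Among the regulators, the 2 SREBP genes moved in opposite directions in Mature hepatocytes. Srebf2 measured 213, 279, 288 and 287 CPM in Hepatoblasts, 158, 146, 156 and 152 CPM in the cultured cells and 101, 82.1, 108 and 101 CPM in the adult cells. The 3 groups did not overlap and lay in that order. Srebf2 fell by 1.45 on the log2 scale in Mature hepatocytes (SE 0.11, edgeR adjusted p = 7.58e-08), and was at -0.80 in culture (95% interval -1.04 to -0.56), not called.

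Srebf1 measured 163, 181, 217 and 242 CPM in Hepatoblasts, 147, 209, 196 and 207 CPM in the cultured cells and 367, 473, 532 and 966 CPM in the adult cells. The first pair of groups overlapped, and all Mature hepatocytes libraries were above them, spread over a wide range. Srebf1 rose by 1.54 on the log2 scale in Mature hepatocytes (SE 0.25, edgeR adjusted p = 9.92e-05), or 0.68 and not called with library totals. In culture against Hepatoblasts its log2 fold change was -0.08, with a 95% interval of -0.62 to 0.45.

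Scap, the escort of SREBP to the Golgi, measured 87.9, 102, 120 and 132 CPM in Hepatoblasts, 94.1, 130, 117 and 131 CPM in the cultured cells and 211, 163, 193 and 198 CPM in the adult cells. It was highest in Mature hepatocytes, without overlap, but was not called there at a log2 fold change of 0.79, which was -0.05 with library totals. Insig1, an SREBP target that retains the Scap complex, measured 170, 271, 276 and 278 CPM in Hepatoblasts, 328, 381, 425 and 403 CPM in the cultured cells and 448, 406, 611 and 545 CPM in the adult cells. It rose by 1.02 in Mature hepatocytes (edgeR adjusted p = 0.000118), at the fold limit, and was not called with library totals (0.18), without Hepatoblasts replicate 1 (0.87), without Mature hepatocytes replicate 3 (0.90) or without Mature hepatocytes replicate 4 (0.97). In culture it was at 0.63, not called.

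Insig2, the second retention protein, measured 9.67, 12.0, 10.9 and 12.6 CPM in Hepatoblasts, 41.1, 61.0, 48.2 and 49.7 CPM in the cultured cells and 439, 114, 292 and 124 CPM in the adult cells. The groups did not overlap, and the Mature hepatocytes spread was the widest of all 32 genes, at 63.8% of the mean. Insig2 was 4.42-fold higher in culture than in Hepatoblasts (edgeR adjusted p = 0.000202) and 21.4-fold higher in Mature hepatocytes (edgeR adjusted p = 2.84e-07). It remained 4.85-fold lower in culture than in Mature hepatocytes (edgeR adjusted p = 8.48e-05).

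Mlxipl measured 74.8, 120, 116 and 138 CPM in Hepatoblasts, 34.6, 55.1, 48.1 and 51.1 CPM in the cultured cells and 464, 546, 428 and 260 CPM in the adult cells. Diff. hepatocytes were lowest and Mature hepatocytes highest, with no overlap. It fell by 1.25 in culture (edgeR adjusted p = 0.000434) and rose by 1.92 in Mature hepatocytes (edgeR adjusted p = 6.30e-06), which placed it 8.98-fold lower in culture than in the adult cells. Stard4, a carrier of cholesterol between membranes, was not called, with a log2 fold change of -0.81 in culture and -0.06 in Mature hepatocytes.

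Of the fatty acid synthesis genes, those called against Hepatoblasts were all higher. In culture edgeR called 3 of 7 higher than in Hepatoblasts and 0 lower (14.9% and 14.0% of all genes). DESeq2 also called 0 lower, and 1 was lower at an unadjusted p under 0.05 (5775 of all 17779 genes were). In Mature hepatocytes 4 were called higher and 0 lower, also by DESeq2 (edgeR called 20.1% and 24.7% of all genes). At an unadjusted p under 0.05, 0 were lower (7127 of all 17779 genes were). Their summed level was 1248 to 2008 CPM in Hepatoblasts, 2236 to 3095 CPM in the cultured cells and 8155 to 13040 CPM in the adult cells. Scd1 alone made up 4.35 to 4.63% of the summed CPM of the 32 genes in Hepatoblasts, 17.0 to 21.6% in Diff. hepatocytes and 47.3 to 56.4% in Mature hepatocytes.

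Scd1 encodes the desaturase that makes oleate from stearate. It measured 203, 303, 329 and 349 CPM in Hepatoblasts, 982, 1500, 1370 and 1370 CPM in the cultured cells and 9390, 5990, 9920 and 9670 CPM in the adult cells. The 3 groups were far apart and did not overlap. Scd1 was 4.41-fold higher in culture (edgeR adjusted p = 1.82e-06) and 29.6-fold higher in Mature hepatocytes than in Hepatoblasts (edgeR adjusted p = 9.15e-10). Culture stayed 6.70-fold below the adult cells (edgeR adjusted p = 1.52e-07). Per kb of exon its level was 1790 CPM in Mature hepatocytes, against 162 CPM per kb for Insig1, the next of the 32.

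Acacb encodes the acetyl-CoA carboxylase at mitochondria, whose malonyl-CoA restrains fatty acid oxidation. It measured 4.22, 5.46, 5.15 and 6.36 CPM in Hepatoblasts, 44.6, 64.4, 61.9 and 58.0 CPM in the cultured cells and 194, 204, 225 and 100 CPM in the adult cells. No library of one group reached another group. It was 10.8-fold higher in culture (edgeR adjusted p = 6.35e-08) and 34.1-fold higher in Mature hepatocytes (edgeR adjusted p = 9.93e-10).

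Me1, malic enzyme, which supplies NADPH, measured 7.26, 12.8, 10.1 and 12.3 CPM in Hepatoblasts, 102, 118, 113 and 116 CPM in the cultured cells and 180, 166, 271 and 260 CPM in the adult cells. The groups did not overlap. Me1 was 10.6-fold higher in culture (edgeR adjusted p = 1.74e-08) and 20.6-fold higher in Mature hepatocytes (edgeR adjusted p = 7.54e-10). Between these groups its log2 fold change was -0.97, not called, and -1.05 and -1.08, called, without Mature hepatocytes replicate 1 or 2. It shares 16.4% of its 75-base stretches with other gene models.

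Fasn, fatty acid synthase, measured 458, 675, 698 and 750 CPM in Hepatoblasts, 541, 773, 753 and 777 CPM in the cultured cells and 904, 938, 1690 and 1810 CPM in the adult cells. The first 2 groups overlapped, and Mature hepatocytes split into 2 lower and 2 higher libraries, all above the rest. In culture the log2 fold change was 0.14 (95% interval -0.37 to 0.65), and -0.17 with library totals. The rise of 1.05 in Mature hepatocytes (edgeR adjusted p = 0.00141) was 0.20 and not called with library totals, 0.91 without Hepatoblasts replicate 1, 0.91 without Mature hepatocytes replicate 3 and 0.86 without Mature hepatocytes replicate 4.

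Acly, which makes cytosolic acetyl-CoA from citrate, Acaca, the cytosolic carboxylase, and Elovl6, which lengthens palmitate, were called in no comparison. Acaca was at 0.76 in culture and 0.69 in Mature hepatocytes against Hepatoblasts, the latter -0.15 with library totals. Acly was at -0.57 in culture (95% interval -0.86 to -0.28, edgeR adjusted p = 0.00233), with all 4 cultured libraries (352 to 416 CPM) below Hepatoblasts (422 to 656 CPM), short of the fold limit. Elovl6 averaged 149 ± 29.3, 146 ± 15.2 and 145 ± 44.0 CPM in the 3 groups (SD, n = 4), with 95% intervals of -0.46 to 0.40 in culture and -0.48 to 0.38 in Mature hepatocytes. Acaca shares 26.8% of its 75-base stretches with other gene models.

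Within a library, ratios of related genes per kb of exon do not depend on the scaling. These pairs were chosen after the values were seen and are descriptions without a test. Srebf1 to Srebf2 was 0.827 to 1.08 in Hepatoblasts, 1.18 to 1.83 in Diff. hepatocytes and 4.63 to 12.2 in Mature hepatocytes. Acacb to Acaca was 0.139 to 0.163, 0.909 to 1.04 and 1.65 to 4.50, and Insig2 to Insig1 was 0.0352 to 0.0507, 0.101 to 0.142 and 0.203 to 0.874. In each pair the cultured cells lay between the other two groups without overlap.

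**Figure D4:**
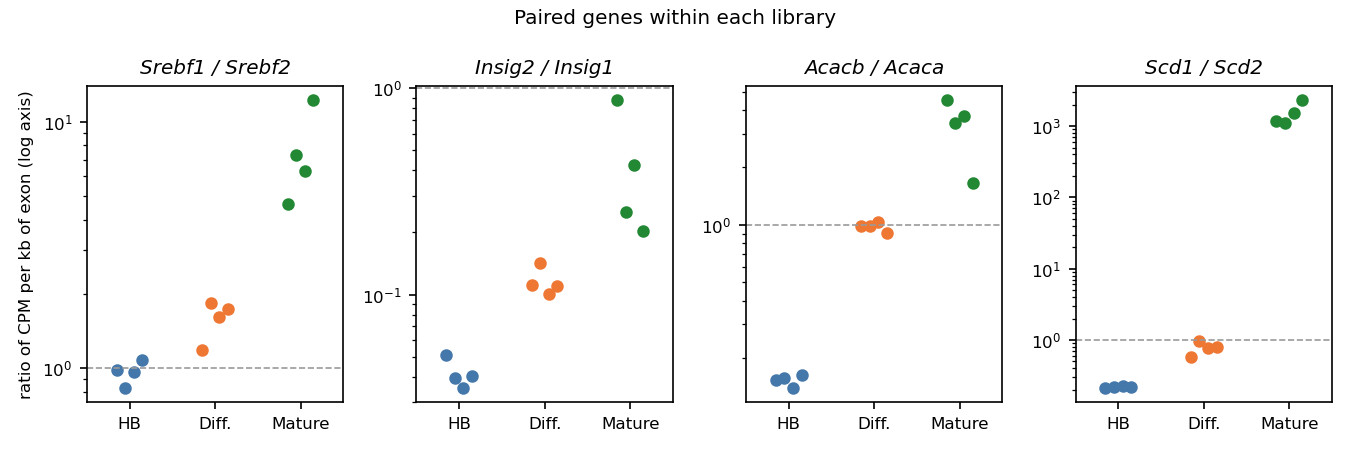
Ratio of CPM per kb of exon between paired genes in each library (log axes), for Hepatoblasts (HB), Diff. hepatocytes (Diff.) and Mature hepatocytes (Mature); each point is a library and the dashed line marks equal levels. Scd1 to Scd2 runs from 0.212 to 0.223 in Hepatoblasts to 1110 to 2290 in Mature hepatocytes.

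Of 41 other genes of these pathways, 9 were called higher and 4 lower in culture (14.9% and 14.0% of all genes), 14 higher and 11 lower in Mature hepatocytes against Hepatoblasts (20.1% and 24.7%), and 7 higher and 10 lower in Diff. hepatocytes against Mature hepatocytes (20.2% and 15.6%). Scd2, the desaturase paralog, averaged 1510 CPM in Hepatoblasts, 1880 CPM in the cultured cells and 6.75 CPM in the adult cells, 8.13 on the log2 scale between the last pair (edgeR adjusted p = 2.21e-11). Thrsp, a lipogenic protein that responds to thyroid hormone, averaged 0.205, 21 and 525 CPM. Lpin1, a phosphatidate phosphatase, averaged 28.3, 292 and 217 CPM, and Elovl5, an elongase, 57.5, 246 and 585 CPM. Of the nuclear receptor partners, Rxra averaged 99.5, 322 and 750 CPM and was called higher in both comparisons with Hepatoblasts, whereas Nr1h3 (the oxysterol receptor LXR alpha) was at 35.2, 42.3 and 152 CPM and was called higher in the adult cells, not in culture. On the sterol side, Soat1, which esterifies cholesterol, averaged 88.8, 18.8 and 3.07 CPM and Lbr, a sterol reductase of the nuclear envelope, 146, 25.6 and 18.2 CPM, both called lower in both comparisons with Hepatoblasts.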

How the data were processed

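The deposited table holds raw counts of 12 libraries by gene. The authors made strand-specific libraries from poly(A) RNA, sequenced 75-base single reads and counted them with STAR 2.5.2b on GRCm38; the strand setting of the counting is not given in the sources used here. Symbols, positions and exon lengths came from GENCODE M21, where 53620 of 53715 identifiers were found.

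The 17779 genes above 10 counts in at least 1 library were scaled by TMM and tested with edgeR 4.0.16 (quasi-likelihood, group as the only term, all 12 libraries) in R 4.3.3, and DESeq2 1.42.0 was an alternative. P-values measure the spread between biological replicates, and libraries of a group differed beyond counting error. CPM per kb uses the union of exons.

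The 32 genes and the lists were chosen with earlier results of these data known. By the rule for named genes, values per library are given for the 4 called, non-overlapping genes of largest fold change per comparison and for Srebf1, Srebf2, Scap, Insig1, Insig2, Sqle, Fasn and Scd1. Mvk and Hmgcs1 were added after their values were seen. Some genes of the other lists are not reported here. Alternatives were other scalings, filters, thresholds, tools, a replicate block and leaving out each library.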

Additional observations from a re-analysis of the deposited data

Results flagged for a closer look

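Of 96 groups of 4 libraries tested for 1 library far from the rest, 11 were flagged. Chance alone flags about 1 in 20 (4.8) if the tests are independent. They are not, as Hepatoblasts replicate 1 was lowest for all 32 genes, so the 11 cannot be set against 4.8. Hepatoblasts replicate 1 was far below its group for Cyp51 (235 CPM), Msmo1 (183 CPM), Hsd17b7 (61.3 CPM), Srebf2 (213 CPM), Insig1 (170 CPM) and Elovl6 (105 CPM), the library with the high erythroid and macrophage markers described above. Diff. hepatocytes replicate 1 was far below its group for Dhcr7 (140 CPM) and Fasn (541 CPM). In Mature hepatocytes, replicate 1 was low for Acaca (76.3 CPM), replicate 2 was low for Scd1 (5990 CPM), and replicate 3 was high for Mvd (44.0 CPM).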

How the results depend on the processing

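In the order cultured cells over Hepatoblasts, adult cells over Hepatoblasts and cultured over adult cells, the members called higher and lower were 4 and 5, 10 and 8, and 2 and 7. With library totals they were 4 and 10, 5 and 15, and 4 and 6. The shares of all genes for the main run and for library totals are given above. Without the 50 most abundant genes the members called were 4 and 6, 6 and 13, and 4 and 6. The shares of all genes were then 13.5% and 15.8%, 12.8% and 39.5%, and 31.9% and 9.79%. With the fold limit inside DESeq2's test the members called were 4 and 1, 7 and 3, and 1 and 4. The shares of all genes were 7.33% and 6.76%, 13.1% and 14.6%, and 10.9% and 8.99%. At an adjusted p under 0.05 with no fold limit they were 8 and 17, 13 and 14, and 5 and 15. The shares of all genes there were 29.3% and 30.4%, 33.4% and 39.0%, and 34.2% and 30.9%. Leaving out 1 library at a time gave 4 to 4 and 4 to 7, 8 to 10 and 6 to 8, and 1 to 2 and 7 to 10, the 1 being without Mature hepatocytes replicate 1. The shares of all genes then ran from 13.6 to 15.2% and 12.7 to 14.3%, 19.4 to 20.5% and 23.3 to 24.8%, and 18.7 to 21.4% and 15.1 to 15.9%. The replicate block gave 4 and 5, 10 and 7, and 2 and 7 (14.9% and 14.4%, 20.3% and 24.6%, and 20.1% and 15.6% of all genes). Same-numbered libraries of the cultured cells and Hepatoblasts correlated in their deviations at 0.324, 0.246 and 0.184 for numbers 1, 3 and 4. The best other number gave -0.118, 0.242 and 0.077, so number 3 was close to a tie. Number 2 was at -0.059, and pairs with the adult cells lay at -0.081 to 0.092. As not every pair passed 0.1 and no label ties the numbers to a shared isolation, the numbers are not taken to pair the samples, though a shared source of some cultured and Hepatoblasts libraries was not tested. The causes were not tested.

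No called gene changed sign. Uncalled values that did, with library totals and then without the 50 most abundant genes, were in cultured over adult cells Acat2 0.18 and 0.21, Cyp51 0.27 and 0.30, Idi1 0.11 and 0.14, Insig1 0.14 and 0.17, Msmo1 0.28 and 0.32, Mvk 0.19 and 0.23, Nsdhl 0.51 and 0.54, and Pmvk 0.26 and 0.29. In adult cells over Hepatoblasts they were Acly -0.77 and -0.59 and Hsd17b7 -0.63 and -0.45, and with library totals alone Acaca -0.15, Scap -0.05 and Tm7sf2 -0.03. In cultured cells over Hepatoblasts they were Scap -0.22 and -0.01 and Sqle -0.27 and -0.07, and with library totals alone Fasn -0.17 and Lss -0.18. With at least 10 counts in every sample, Acly was at -0.05 (adult cells over Hepatoblasts) and Nsdhl at 0.08 (cultured over adult cells).
Leaving out 1 library at a time turned the sign of further uncalled values, whose ranges were Fdft1 -0.15 to 0.03, Sqle -0.09 to 0.10, Lss -0.01 to 0.22, Srebf1 -0.16 to 0.02, Elovl6 -0.16 to 0.02 (cultured cells over Hepatoblasts), and Stard4 -0.24 to 0.01, Acly -0.05 to 0.14, Elovl6 -0.26 to 0.10 (adult cells over Hepatoblasts), and Nsdhl -0.07 to 0.03, Acaca -0.05 to 0.17, Elovl6 -0.14 to 0.21 (cultured over adult cells).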
